A study of Rattus norvegicus with 4 samples.

Results

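The fatty acid-binding proteins (FABPs) measured in rat mesenteric white adipose tissue were the 5 array spots B14c (epidermal, E-FABP, gene Fabp5), B14d (liver, L-FABP, Fabp1), B14e (heart, H-FABP, Fabp3), B14f (intestinal, I-FABP, Fabp2) and B14h (adipocyte, FABP4, Fabp4). They were chosen by these array codes, without use of their values, and are 5 of the 1176 gene spots of the array. Intracellular FABPs are small cytosolic proteins that hold a long-chain fatty acid in a barrel-shaped pocket and carry it between membranes, lipid droplets and enzymes. Each tissue expresses its own set. FABP4 is the abundant form of the fat cell and a standard marker of it, L-FABP belongs to liver and small intestine, I-FABP to the absorptive cells of the small intestine, H-FABP to heart and skeletal muscle, and E-FABP to skin and many other cells, among them adipocytes and macrophages.

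The animals were female Wistar rats of 220 to 230 g on standard chow, killed in the fed state. The treated rats received oleoyl-estrone (OE), the oleic acid ester of estrone, by stomach tube at 10 μmol/kg/day in 0.2 ml of sunflower oil for 48 h, and the control rats received the oil alone. Mesenteric fat RNA of 2 control rats (control 1, control 2) and 2 treated rats (OE 1, OE 2) was labelled with 33P and hybridised to nylon cDNA arrays, 1 rat on each array. The mesenteric depot lies along the small intestine and also holds vessels and lymph nodes. In whole tissue, fewer cells of a type and less RNA per cell cannot be told apart.

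The value of a spot is its adjusted intensity, that is, its brightness minus the background of its array. A spot was called detected at 2 times the background or more, which came to 120 for control 1, 108 for control 2 and 122 for either OE array. Between 147 and 240 of the 1176 genes were detected on an array, 95 of them on all 4. For comparisons between arrays each value was divided by the median of its array (14 for control 1, 9 for control 2, 22 for OE 1, 17 for OE 2), and the unit is then the array median. These medians lie far below the detection limits, so that the scaling rests on spots that were not detected. The adipocyte marker list fixed for the tissue held LPL, HSL, perilipin, leptin and aquaporin 7. It had 0 of 5 genes detected on control 1, 3 each on control 2 and OE 1, and 1 on OE 2. Leptin and aquaporin 7 were detected on no array. A list of 9 leukocyte surface genes, chosen after some of their values were seen, summed to 3667 on control 1 and to 214 on control 2, where 3 of the 9 stood at 0. The leukocyte sums of OE 1 and OE 2 were 5854 and 2245. Such sums are not scaled, and OE 1 was the brightest array. Its total adjusted intensity was 387445, beside 172653 on control 1, 200464 on control 2 and 223238 on OE 2. By the leukocyte list control 2 stood apart. The adipocyte list was lowest on control 1, both in the count of detected genes and in the sum (175). Control 2 equalled OE 1 in that count, but its adipocyte sum was 1267, beside 686 on OE 1 and 434 on OE 2. In array medians the 4 adipocyte genes that entered the fit described below were all highest on control 2. Leptin did not enter. The controls thus differed from each other, and the group ratios of FABP4 and E-FABP are also given without each of them.

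FABP4 and E-FABP were detected on all 4 arrays, L-FABP and I-FABP on OE 2 and on no other array, and H-FABP on none. The count of detected members was thus 4 on OE 2 and 2 on each of the other arrays.

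**Figure D1:**
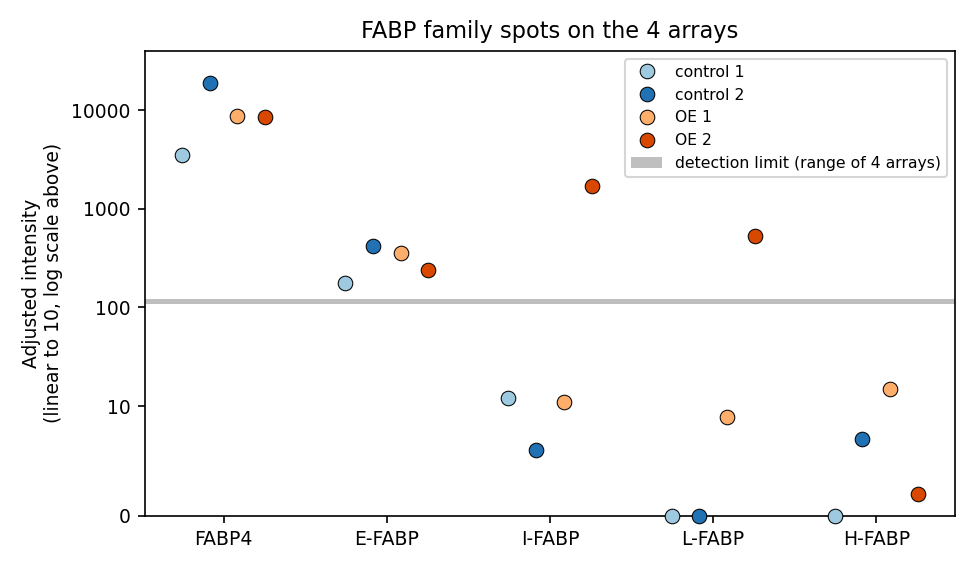
Adjusted intensity of the 5 FABP spots (1 point for each of the 4 arrays), on an axis that is linear to 10 and logarithmic above, with the detection limits of 108 to 122 as a grey band. FABP4 and E-FABP lie above the band on every array, I-FABP (1690) and L-FABP (525) only on OE 2, and H-FABP never.

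The promoters of L-FABP and I-FABP are shown because these members shared their pattern across the arrays. RefSeq promoter sequences (rat build GRCr8) matched 3 of the 5 members, namely Fabp1, Fabp2 and Fabp3. Given here are the 250 bases before the start, 5′ to 3′ on the plus strand, at chr4:104749090-104749339 for L-FABP and chr2:213724379-213724628 for I-FABP. Capitals mark matches to the motif TATAAA on the plus strand, and on either strand to the receptor half-sites AGGTCA and also AGTTCA, to the GATA factor motif GATAAG and to the HNF1-type motif GTTAAT. The motifs were chosen after the sequences had been seen.
L-FABP: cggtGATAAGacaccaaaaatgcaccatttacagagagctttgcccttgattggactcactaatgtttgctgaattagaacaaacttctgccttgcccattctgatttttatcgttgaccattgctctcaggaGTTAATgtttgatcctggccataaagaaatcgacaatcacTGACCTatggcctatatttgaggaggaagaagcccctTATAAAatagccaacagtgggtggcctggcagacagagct
I-FABP: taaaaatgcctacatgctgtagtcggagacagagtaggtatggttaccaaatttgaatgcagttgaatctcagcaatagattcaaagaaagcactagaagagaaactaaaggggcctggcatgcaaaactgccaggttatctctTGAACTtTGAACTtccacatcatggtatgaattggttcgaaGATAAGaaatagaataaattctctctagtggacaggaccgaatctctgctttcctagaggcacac
The L-FABP window held TATAAA beginning 40 bases before the start, AGGTCA on the minus strand (its window begins 77 bases before), GTTAAT at 117 bases and GATAAG at 246 bases. The I-FABP window held AGTTCA on the minus strand at 106 and again at 99 bases before the start, with 1 base between the copies, and GATAAG at 65 bases. GATAAG was thus the only one of the 5 motifs found in both windows, and the H-FABP window held none of them. Among 33469 rat promoter windows of the same length, 8.06% held TATAAA, 14.1% AGGTCA, 12.2% AGTTCA, 6.18% GATAAG and 6.45% GTTAAT. These matches describe letters in the windows and are not evidence of binding. On the chromosome, Fabp4 and Fabp5 are near neighbours on chromosome 2 with only Fabp9 and Pmp2 between them among the protein-coding genes, while Fabp2 lies elsewhere on chromosome 2, Fabp1 on chromosome 4 and Fabp3 on chromosome 5.

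FABP4, which binds the fatty acids that enter and leave the lipid droplet and interacts with hormone-sensitive lipase, gave by far the brightest FABP spot. The controls had adjusted intensities of 3532 (control 1) and 19033 (control 2), and the treated rats had 8811 (OE 1) and 8512 (OE 2). The OE arrays were close to each other and lay between the controls, so that the groups overlapped. On all 4 arrays the spot stood far above its limit, from 29.4 times on control 1 to 176 times on control 2.

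In array medians FABP4 came to 252 and 2115 in controls 1 and 2, and to 400.5 and 501 in OE 1 and 2. The mean of the controls was 1184 ± 1317 and that of the OE rats 451 ± 70.9 (SD, n = 2 each), which gave a ratio of 0.381. The controls differed from each other 8.38-fold on this scale and the OE rats 1.25-fold, so the difference between the group means was smaller than the spread between the controls. On the log2 scale limma gave a difference of -0.71 (SE 1.13, 95% interval -3.61 to 2.20) with a Benjamini-Hochberg adjusted p of 0.958 over 922 spots.

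The direction depended on the control that was used. Against control 1, FABP4 was 1.59-fold on OE 1 and 1.98-fold on OE 2. Against control 2 it was 0.189 on OE 1 and 0.237 on OE 2. Without control 2 the ratio of the means was 1.79, and without control 1 it was 0.213. Of the 922 spots in the fit, 169 (18.3%) had a ratio under 0.5, and FABP4 was the only one of the detected members among them.

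E-FABP, a form with a broad tissue range that binds fatty acids and retinoic acid, was detected on all 4 arrays at a much lower brightness. Control 1 had an adjusted intensity of 177, control 2 of 419, OE 1 of 356 and OE 2 of 238. The order was that of FABP4 in that control 1 was lowest and control 2 highest, and the groups overlapped again. The spot on control 1 was the one closest to the limit, at 1.48 times it.

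In array medians E-FABP came to 12.6 and 46.6 in controls 1 and 2, and to 16.2 and 14 in OE 1 and 2. The mean of the controls was 29.6 ± 24.0 and that of the OE rats 15.1 ± 1.54 (SD, n = 2 each), which gave a ratio of 0.510. The limma difference was -0.69 on the log2 scale (SE 0.82, 95% interval -2.81 to 1.43, adjusted p = 0.957). The ratio without control 2 was 1.19 and without control 1 it was 0.324. As deposited, before division by the array medians, the group means of E-FABP were 298 ± 171 and 297 ± 83.4 (SD, n = 2 each), a ratio of 0.997, and the ratio of FABP4 was 0.768. These unscaled ratios too depended on the control that was kept. Without control 2 they were 1.68 for E-FABP and 2.45 for FABP4, and without control 1 they were 0.709 and 0.455.

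The levels of FABP4 and E-FABP were also set against the genes of the fat cell measured on the same arrays. The summed signal of LPL, HSL and perilipin served for this, a reference chosen after the data were seen. LPL releases fatty acids from circulating lipoproteins, HSL releases them from stored fat, and perilipin coats the lipid droplet. All 3 were detected on control 2 and on OE 1, but none on control 1 and only LPL on OE 2. A reference gene under the limit was therefore put at the limit, which makes the ratio a lower bound. Relative to this sum FABP4 was 15.5 on control 2 and 13.2 on OE 1, the arrays where the ratio was measured. It was at least 9.81 on control 1 and at least 17.5 on OE 2. No comparison of the groups is drawn from these bounds.

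Relative to the same sum E-FABP was 0.341 on control 2 and 0.532 on OE 1. It was at least 0.492 on control 1 and at least 0.490 on OE 2. The signal of E-FABP was 5.01% of that of FABP4 for control 1 and 2.20% for control 2, and the values of OE 1 (4.04%) and OE 2 (2.80%) lay between them. Since the spots hold different probes, such shares compare arrays and do not give the number of transcripts.

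**Figure D2:**
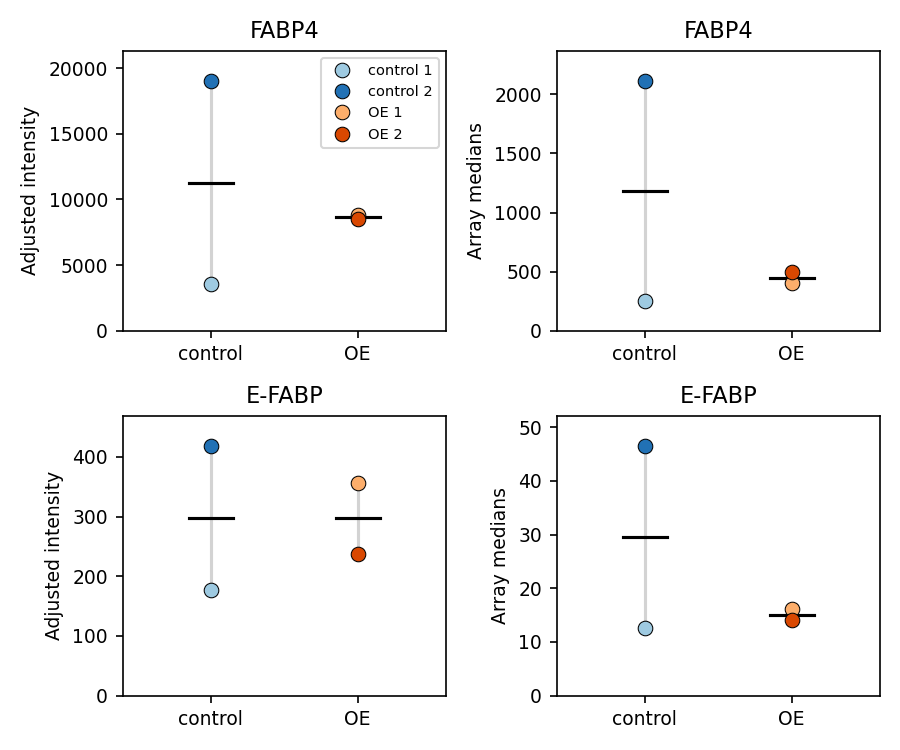
FABP4 (top) and E-FABP (bottom) on each array as adjusted intensity (left) and in array medians (right), with the group mean as a black bar and n = 2 arrays per group. On both scales control 1 is lowest and control 2 highest, for FABP4 at 252 and 2115 array medians, with the OE arrays between them.

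The genes whose profile was most like that of FABP4 were sought among the 94 other genes detected on all 4 arrays, by the root mean square distance between centred log2 values over the 4 arrays. The closest was IGFBP5, a binding protein of insulin-like growth factors, at a distance of 0.28. Its adjusted intensity was 205 and 764 in the controls and 444 and 301 in the OE rats, each pair in the order of the array numbers. ERK1, a mitogen-activated protein kinase, TIMP-1, an inhibitor of matrix metalloproteinases, COX5B of the respiratory chain and ATP5B of the mitochondrial ATP synthase followed at distances of 0.31, 0.31, 0.32 and 0.33. All 5 shared with FABP4 the highest adjusted intensity on control 2 and the lowest on control 1.

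For E-FABP the closest profile was that of the fibroblast ADP/ATP carrier, which exchanges nucleotides across the inner mitochondrial membrane, at a distance of 0.11. Its adjusted intensity was 282 and 643 in the controls and 664 and 392 in the OE rats. EIF-2-alpha, an initiation factor of translation, the receptor phosphatases PTP-PS and R-PTP-A, and the TGF-beta II receptor followed at 0.11, 0.15, 0.15 and 0.16. With 4 arrays these distances describe the profiles and were not tested. Of the 95 genes detected on all 4 arrays, 64 (67.4%) were highest on control 2 in array medians, and for 27 (28.4%) control 1 was also below both OE arrays. The pattern that FABP4 and E-FABP shared was therefore a frequent one on these arrays.

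I-FABP, which carries dietary fatty acids in the absorptive cells of the small intestine, was bright on a single array. The controls had 12 and 6, OE 1 had 11, and OE 2 had 1690 in adjusted intensity. The value of OE 2 was 13.9 times the detection limit, and the other 3 arrays were far under theirs. Compared with the lowest detected signal of each other array, I-FABP on OE 2 was at least 11.4-fold higher than on control 1, 8.21-fold than on control 2 and 17.8-fold than on OE 1, in array medians. L-FABP, which binds fatty acids, bile acids and haem in hepatocytes and enterocytes, had 0 in either control and 9 in OE 1, against 525 in OE 2. The value on OE 2 was 4.30 times the limit. On the same terms it was at least 3.54-fold above control 1, 2.55-fold above control 2 and 5.52-fold above OE 1.

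Both values describe 1 rat. The other treated rat, OE 1, was under the detection limit for either gene, as were both controls. No fold change between the groups is given, since a bound over both OE arrays stays under 1. In the limma fit the adjusted p was 0.957 for I-FABP. For L-FABP no p is given, since both controls were at the floor and the spot entered the fit through the OE arrays alone. L-FABP lay above both controls on both OE arrays, as did 130 of the 922 spots (14.1%), although its value of 9 on OE 1 was within the background. I-FABP did not, since in array medians OE 1 (0.50) lay below both controls (0.857 and 0.667).

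Only 7 of the 1176 genes (0.595%) were detected on OE 2 and on no other array, and 2 of them were FABPs. The others were apolipoprotein A-IV, apolipoprotein A-I, CD24, CYP17 and phospholipase C beta 3. Apolipoprotein A-IV, which intestinal cells secrete on chylomicrons, had 5 in either control, 22 in OE 1 and 1433 in OE 2. Apolipoprotein A-I, the main protein of high-density lipoprotein, had 10, 0, 25 and 981. These apolipoproteins and the pair of FABPs were the 4 brightest of the 7. CD24, a surface glycoprotein, reached 264 on OE 2, phospholipase C beta 3 reached 145 and CYP17, an enzyme of steroid synthesis, reached 125.

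Of the markers of the small intestine, only apolipoproteins A-IV and A-I were detected on OE 2 alone, as I-FABP and L-FABP were. The enterocyte list had 9 genes on the array, and its summed signal was 60 and 167 in the controls, 213 in OE 1 and 2825 in OE 2. Most of the sum on OE 2 came from apolipoproteins A-IV (1433) and A-I (981). In array medians 7 of the 9 were highest on OE 2, as were 176 of all 1176 genes, and 5 of the 7 were under the detection limit there. Besides the apolipoproteins, meprin beta, a brush border protease, had 3, 14, 10 and 102, aminopeptidase M had 7, 13, 17 and 74, and the sodium-glucose cotransporter SGLT1 had 0, 3, 3 and 64. These 3 were under the detection limit on OE 2 as well. Sucrase isomaltase had 14 on OE 2, and the intestinal guanylate cyclase stood at 0 there. Dipeptidyl peptidase IV, which many tissues express, was detected on 3 arrays, with 120 on control 2, 128 on OE 1 and 143 on OE 2. In array medians it was highest on control 2.

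The hepatocyte list, with 5 genes, summed to 30 and 44 in the controls and to 81 and 50 in the OE rats, with none detected. The 5 genes of the exocrine pancreas summed to 26, 22, 24 and 55, again with none detected. The part of intestinal RNA in the FABP values of OE 2 was not tested.

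**Figure D3:**
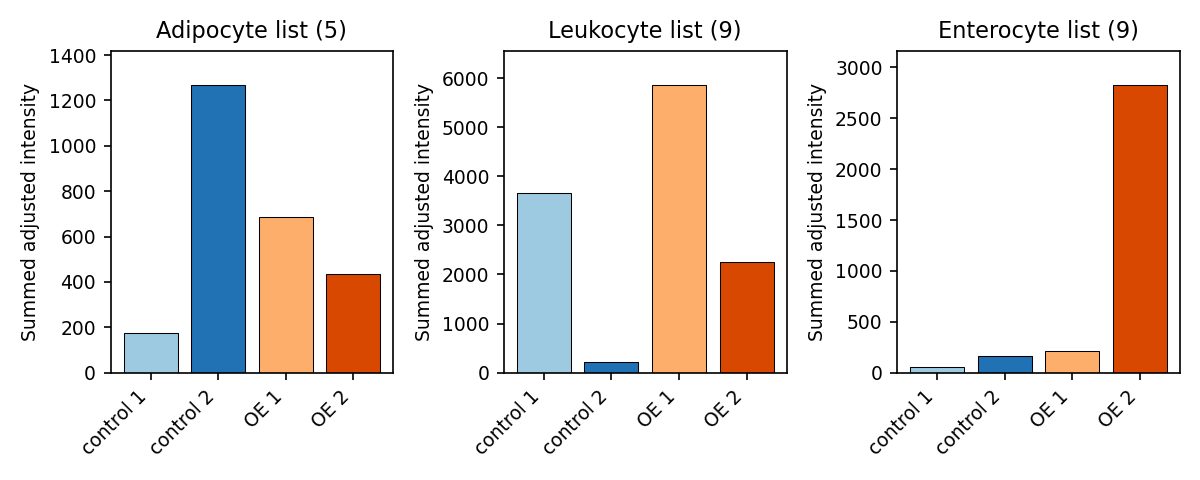
Summed adjusted intensity, not scaled, of the adipocyte list (5 genes), the leukocyte list (9 genes) and the enterocyte list (9 genes) on each array. Bars start at 0. The adipocyte sum is highest on control 2 (1267) and lowest on control 1 (175), and the leukocyte sum is lowest on control 2 (214). The enterocyte sum is high on OE 2 alone (2825), mostly from apolipoproteins A-IV (1433) and A-I (981).

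H-FABP, the form of heart and skeletal muscle, was detected on no array. Its adjusted intensity was 0 and 7 in the controls and 15 and 2 in the OE rats, and did not exceed 0.123 times the limit. It was the 1 member that did not enter the fit, since it lay above the floor of 0.235 array medians on both arrays of neither group. A difference between the groups was not detectable at these intensities. Of the 4 members that entered, L-FABP did so through the OE arrays alone.

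The other FABPs of the array were detected on no array either. Brain FABP had 29, 5, 26 and 0, and FABP9, the form of the testis, had 4, 17, 11 and 6, in the order of control 1, control 2, OE 1 and OE 2. FABP9 was added to the list after its values were seen.

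The FABP spots lie close together on the array, in the order of their codes. H-FABP lies between L-FABP and I-FABP and had 2 on OE 2, where these had 525 and 1690. The spot between I-FABP and FABP4 is SCP2 (B14g), a sterol carrier protein, which was detected on all 4 arrays with 202, 738, 419 and 224. Unlike I-FABP, SCP2 was highest on control 2, and it was lowest on control 1, as FABP4 was. FABP9, on the other side of FABP4, stayed at 17 or less, although FABP4 reached 19033 on control 2. VAMP2 (B14b), a membrane fusion protein next to E-FABP, had 67, 27, 186 and 95.

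**Figure D4:**
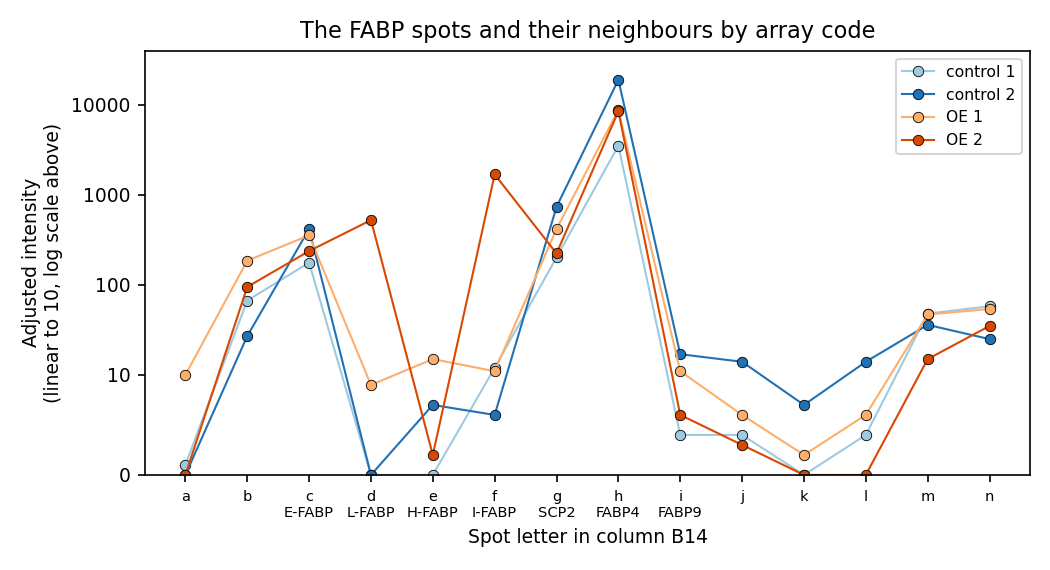
Adjusted intensity of the 14 spots of array column B14, from a to n, on the 4 arrays, on an axis that is linear to 10 and logarithmic above. H-FABP, between L-FABP and I-FABP, is at 2 on OE 2, FABP9, beside FABP4, is at 17 or less, and SCP2, on the other side of FABP4, is between 202 and 738.

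The share of each member in the summed signal of the 5 spots followed from these values. FABP4 gave 94.9% and 97.8% of the family signal in controls 1 and 2, 95.8% in OE 1 and 77.6% in OE 2. The mean of the controls was 96.4% ± 2.02 and that of the OE rats 86.7% ± 12.8 (SD, n = 2 each). The low share was that of OE 2, where I-FABP gave 15.4% and L-FABP 4.79%. Without OE 2 the OE value was 95.8%, between the controls. H-FABP stayed at or under 0.163% on all arrays.

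A wider list held the genes that take up, activate, make, release and oxidise fatty acids. Of its 21 genes on the array none was detected on all 4 arrays, 12 were detected on at least 1 array and 20 entered the fit. None passed the limma threshold in either direction, as was true of all 922 spots (0%), where 19 spots had an unadjusted p under 0.05 and the lowest adjusted p was 0.957. A ratio under 0.5 was found for 10 of the 20, beside 18.3% of all spots, and the median log2 ratio was -1.03 beside -0.16 for all spots. These values depended on the control that was kept. Without control 2 the median log2 ratio was 0.55, beside 0.10 for all spots. Without control 1 it was -1.44, beside -0.37 for all spots. In array medians 17 of the 20 were highest on control 2, as were 45.3% of all spots in the fit.

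By role, LPL had an adjusted intensity of 115, 746, 342 and 242, again in the order of control 1, control 2, OE 1 and OE 2. CD36, which takes fatty acids into the cell, had 26, 114, 270 and 112. LACS2, which activates them with coenzyme A, had 40, 801, 618 and 189. HSL had 27, 300, 191 and 94, and perilipin had 19, 182, 136 and 87. In each of these 5 genes control 1 was lowest, as it was for FABP4 and E-FABP, but here it was under the detection limit. FAS and ACC, which make fatty acids, were lowest on OE 2 instead. FAS had 60, 182, 39 and 15, and ACC had 34, 138, 37 and 28, each detected on control 2 alone. The mitochondrial acyl-CoA dehydrogenases MCAD and LCAD, which catalyse the first step of oxidation, had 48, 123, 113 and 84, and 45, 163, 102 and 88. RXR alpha, the partner of the receptors that fatty acids activate, had 89, 143, 153 and 84. These values are not scaled. CD36 and RXR alpha were highest on OE 1 before scaling, but on control 2 in array medians. A macrophage marker, c-fms, had 100, 46, 315 and 135, and was under the detection limit on both controls. The part of fat cell or macrophage content in the FABP4 and E-FABP values was not tested.

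The processing and the choice of control arrays decided whether FABP4 and E-FABP fell under the cutoff of 0.5. The ratio of FABP4 ranged from 0.213 to 1.79 and that of E-FABP from 0.324 to 1.19 over 19 alternatives each. In either case the lowest value was that without control 1 and the highest that without control 2. With all 4 arrays kept, the ratios were 0.268 and 0.341 with the housekeeping spots as reference, and 0.768 and 0.997 without scaling. With the genes detected on all 4 arrays as reference they were 0.574 and 0.710. The latter reference uses detected spots alone, and on it both members lay above the cutoff. In none of the alternatives fitted with limma did any spot of the array pass the threshold.

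**Figure D5:**
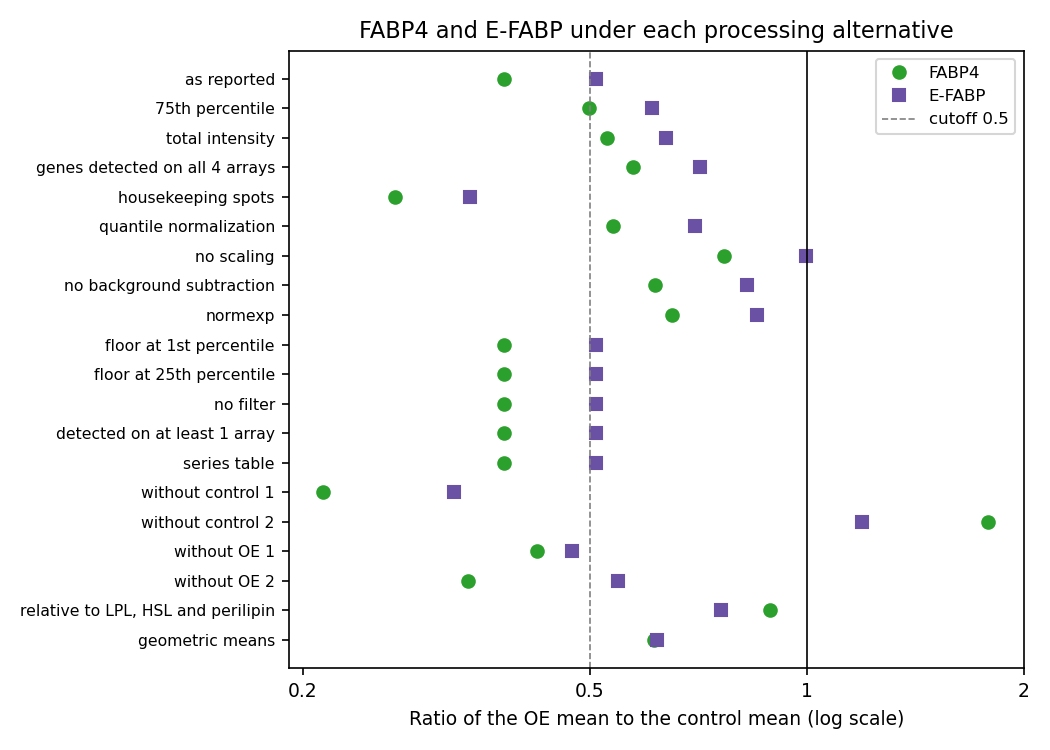
Ratio of the OE mean to the control mean for FABP4 (circles) and E-FABP (squares), on a log axis, with a line at 1 and a dashed line at 0.5. The row labelled as reported is the main processing used here, and the other rows are the alternatives. The points lie below 1 except without control 2, where FABP4 is at 1.79 and E-FABP at 1.19.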

How the data were processed

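RNA of mesenteric fat from 2 control and 2 OE rats was measured on 4 nylon arrays (Atlas Rat Array), grouped by their labels. For 1185 spots, 1176 of them genes, the authors deposited what their image software wrote, namely the intensity, the background and the adjusted intensity, and the adjusted intensity equalled intensity minus background, or 0, without exception. No scaling had been applied. Each file also held 3 value columns of a second array, 12 in all, which were not used, together with the ratio and the difference of both arrays. A series table of adjusted intensity, deposited without gene names, was matched to 933 spots by its values for control 1, control 2 and OE 2. In 239 of these spots its OE 1 value differed from that of the array, which was kept as the main value. The 4 FABP members that were matched had equal values in both. The series table was used as an alternative.

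Each array was divided by its 50th percentile, as in the study's methods, and a floor was set at the 10th percentile of positive values (0.235). A spot entered when above this floor on both arrays of a group, which left 922 spots, 9 of them housekeeping. Groups were compared on log2 values in R 4.3.3 with limma 3.58.1 (group as the only term, Benjamini-Hochberg adjustment over 922 spots, threshold 0.05), after tests on simulated data. Fold changes are on the log2 scale of floored values. The GeneSpring error model was not repeated. Ratios are means of OE over means of control, with cutoffs of 0.5 and 1.5. The number of arrays limits the precision, and with 2 arrays a group an exact two-sided permutation p cannot go below 0.333, so none was run.

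Named were all 5 members, for members detected on all arrays the 5 closest profiles, for members detected on 1 array all genes detected on that array alone, all other FABPs, the neighbouring spots, and from each gene list up to 8 of the brightest detected genes. Markers under the limit were named from their list, and FAS and ACC as the genes of synthesis in theirs. Not measured among the list genes fixed were, for example, PPARs and albumin. The members, lists and tests were chosen with earlier results of these data known. Alternatives were other scalings, backgrounds, floors, filters and models, the series table and leaving out each array. Promoters were read from a RefSeq table with Python 3.11.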

Additional observations from a re-analysis of the deposited data

How the results depend on the processing

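For 19 alternatives the count of spots at an adjusted p under 0.05 stayed at 0 in each, with 1 to 258 spots at an unadjusted p under 0.05, and the adjusted p of I-FABP lay between 0.643 and 0.999. The log2 fold changes of FABP4 and E-FABP were negative in 17 of 19 alternatives each. Many of these could not change them. The other floors and filters, the series table, the replicate block and the intensity trend all left them at -0.71 and -0.69. Without scaling the log2 fold changes were 0.079 and 0.10, and E-FABP had a ratio of 0.997. Leaving out each array in turn gave log2 values from -2.24 to 0.83 for FABP4 and from -1.63 to 0.25 for E-FABP, and ratios from 0.213 to 1.79 and from 0.324 to 1.19, the positive end in each case without control 2. Relative to LPL, HSL and perilipin, an alternative added after the data were seen, FABP4 had a ratio of 0.889. It took reference values under the detection limit as they stood, for all 3 genes on control 1 and 2 of the 3 on OE 2. The ratio is therefore not read as a comparison of the groups. The count of spots with a ratio under 0.5, 169 as reported, was 102 with the genes detected on all 4 arrays as reference, 422 with the housekeeping spots, 29 without scaling, 10 without background subtraction, 10 with normexp, 57 among spots detected on at least 1 array and 124 to 313 on leaving out an array. The median log2 ratio of all spots was -0.91 with the housekeeping spots and 0.63 without scaling, beside -0.16 with the main processing. At 3 times the background 1 member was detected on control 1, E-FABP being lost. The cause of these differences was not tested.

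Arrays of the 2 groups share replicate numbers in the labels. The deviations of same-numbered arrays correlated at 0.05 across 922 spots. With a single difference in each group, this value cannot decide whether the arrays were paired. The main fit used group as the only term. Fitted with a replicate block, the log2 values were -0.71 for FABP4 and -0.69 for E-FABP, and 0 spots passed the threshold. With 1 array of each group in a block, the block cannot change these log2 values. For spots under the detection limit the signal over background limits what can be said.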
